A study of Homo sapiens with 8 samples.

Results

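The DLK1-MEG3 imprinted domain on human chromosome 14 was examined in 4 fixed intervals of genome build hg19. They are the DLK1 promoter (101191000 to 101195500), the intergenic control region (101275427 to 101278058), the MEG3 promoter region (101290524 to 101293978) and RTL1 (101345000 to 101352000). Every CpG listed inside an interval was a member, which gave 63, 0, 42 and 45 CpGs, 150 of the 2965709 listed on the autosomes and chromosome X. The intergenic control region held no listed CpG in any of the 8 files and was not analysed here. Its nearest listed neighbours lay 4416 bases before it and 4179 bases after it.

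The cells were HUES64, an established human embryonic stem cell line, labelled DNMT3A/3B DKO. All of the libraries share this genotype, so there was no library of cells with both enzymes among them. DNMT3A and DNMT3B place methylation on unmethylated DNA, and DNMT1, which copies methylation after replication, is not named as disrupted in these cells. Reduced representation bisulfite sequencing (RRBS), which reads methylation in CpG-rich fragments cut by a restriction enzyme, was done at passages 6, 7, 8, 11, 13, 17, 27 and 28, with 1 library at each. Libraries of passages 6 to 8 are called early here, those of passages 11 to 17 middle and those of passages 27 and 28 late. Whether the passages come from a single culture or clone is not stated in the labels. The p-values therefore reflect scatter between single libraries, part of which may be technical.

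Imprinted genes are expressed from only the maternal or only the paternal copy, and methylation at a control region marks which copy is which. In this domain the intergenic control region and the MEG3 promoter are normally methylated on the paternal copy and unmethylated on the maternal copy. The paternal copy then expresses DLK1, a membrane protein that restrains differentiation, and RTL1, a protein derived from a retrotransposon that is needed in the placenta. The maternal copy expresses MEG3, a long non-coding RNA, and the microRNAs and small nucleolar RNAs that follow it. RefSeq lists 55 microRNA genes between DLK1 and DIO3, the gene at the far end of the domain. The domain is known for variable MEG3 methylation among pluripotent stem cell lines.

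The sequence shown is the MEG3 promoter, which lies in the part of the interval that stayed methylated and not in the part where the loss was called. RefSeq (build GRCh38.p14, chromosome 14, plus strand) holds 3 overlapping MEG3 promoter sequences, 1 for RTL1 and 0 for DLK1. The first of the MEG3 sequences, whose first base lies at position -250 from a transcription start, lies at chr14:100825858-100826157 in GRCh38.p14 and was placed on the deposited hg19 positions by the spacing of its CpGs. Only places on the chromosome were kept where every CpG listed under the sequence fell on one of its 19 CpGs. The full match was therefore required, and places with a mismatch were not counted. The place used had 7 listed CpGs and the next best of those kept had 4. The start then falls at 101292445 in hg19. The second MEG3 sequence was placed 10 bases further on, the same offset as in RefSeq. The third MEG3 sequence (5 CpGs matched) and that of RTL1 (3 matched) were placed far outside the domain and were not used, so the hg19 start is an estimate. Capitals mark the 7 CpGs listed in the files.
MEG3: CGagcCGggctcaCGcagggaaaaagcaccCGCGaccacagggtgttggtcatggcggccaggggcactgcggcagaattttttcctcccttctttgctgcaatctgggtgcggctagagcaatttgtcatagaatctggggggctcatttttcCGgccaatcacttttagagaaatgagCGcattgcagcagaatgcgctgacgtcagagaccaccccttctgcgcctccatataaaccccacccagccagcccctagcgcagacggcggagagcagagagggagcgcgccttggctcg

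Over all libraries, these 7 CpGs were methylated in at least 94% of their reads. The CpG at 101292195, the first base of the sequence, was methylated in 77 of 77 reads, and the one at 101292349, 96 bases before the start, in 130 of 138. In the late libraries the latter had 35 methylated reads of 36, while the most-read CpG, at 101292200, had 36 of 41 and the one at 101292208 had 17 of 19. The sequence was searched on both strands for the letters TGCCGC, which the imprinting factor ZFP57 recognises when methylated. They occur 1 time, from base 70, and in 16.7% of the 34796 RefSeq promoters of the same length. CCGG, the site cut in common RRBS protocols, occurs 2 times (63.1% of promoters). The core motif of CTCF does not occur in this window (0.0661% of promoters). TGACGTCA, the cyclic AMP response element, was added to the search after the sequence had been read and occurs 1 time (1.84% of promoters). A match is only a run of letters and does not show binding.

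The intervals stood far apart at the start of the series. DLK1 promoter CpGs were almost free of methylation, MEG3 promoter CpGs lay at about 70 to 80%, and RTL1 CpGs were near 90%. Between passages 17 and 27 the MEG3 interval fell to near 50%, and RTL1 fell by fewer points. A level here is the share of methylated reads, summed over the CpGs of an interval in a library. The 95% Wilson intervals and the limits given for counts of 0 cover counting error only, and since a read can cover several CpGs, they are too narrow. An intermediate bulk level does not tell methylation of 1 parental copy from a mixture of cells. The late MEG3 level near 50% averages unlike parts. The 14 CpGs farthest upstream lay at 2.09 and 0.585% at passages 27 and 28, and the other 28 at 95.4 and 92.8%. Those 28 lay at 92.8% or more in every library, more than methylation of 1 parental copy alone would give.

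**Figure D1:**
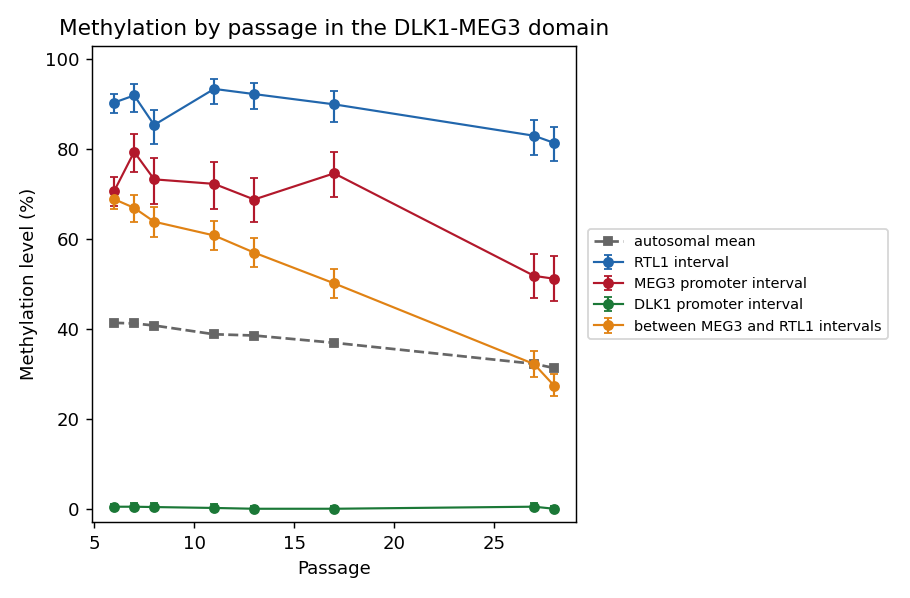
Methylation level (%) against passage for the DLK1, MEG3 and RTL1 intervals, the stretch between the MEG3 and RTL1 intervals, and the autosomal mean; points are single libraries and bars are 95% Wilson intervals of the reads. The MEG3 interval lies between 68.8 and 79.4% up to passage 17 and near 51% at passages 27 and 28, while DLK1 stays under 1%.

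The DLK1 promoter, the start of the paternally expressed protein-coding gene, had 14 methylated reads of 5237. Levels were 0.453, 0.455 and 0.380% in the early libraries, 0.179% at passage 11 and 0.460% at passage 27. No methylated read was seen at passages 13, 17 and 28, which allows levels of up to 0.556, 0.564 and 0.453%. All of the libraries thus lay under 1%, and early and late libraries overlapped. Of the 63 CpGs, 55 had no methylated read in any library. The CpG with the most reads, at 101195057, had 2 methylated reads of 190, and the next, at 101195156, had 0 of 181, which allows up to 1.66%. The fitted change between passages 6 and 28 was -0.23 points (adjusted p = 0.458), from a quasi-binomial fit over all tiles of the genome with limma's moderated dispersion. The slope was -0.00913 ± 0.00958 points per passage (SE; exact permutation test, p = 0.367, n = 8). With so few methylated reads, a loss could hardly be seen: an early mean of 0.429% ± 0.0429 (SD, n = 3) was followed by a late mean of 0.230%. Passage 27 alone held 3 of the methylated reads, and without it the slope was -0.0224 (exact permutation p = 0.0107, n = 7).

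The MEG3 promoter region was lower in the late libraries, and a loss was called in 1 of its 3 tested tiles. Its level was 70.7, 79.4 and 73.3% in the early libraries, in order of passage, and 72.3, 68.8 and 74.6% in the middle ones. In the late libraries it was 51.8% (Wilson interval 47.0 to 56.6%) and 51.2% (46.2 to 56.2%). Both late libraries lay below all 6 earlier ones, which showed no order by passage. The early mean was 74.5% ± 4.48 (SD, n = 3) and the late mean 51.5%. In the fit over all tiles the change was -22.2 points (adjusted p = 0.000149, limma's moderated dispersion), a called loss. A call needed an adjusted p under 0.05 and a change of at least 10 points, and 47.6% of the 11743 tested tiles of 1000 bases were called as losses and 0.17% as gains by the same rule. Of the tested tiles that started at 60 to 80%, as the interval did, 66.6% were called as losses. The median change of that class was -30.6 points, a larger fall than that of the interval. The 3 tiles of the interval were tested in another fit, over all listed CpGs. In that fit 23.6% of 215318 tiles were called as losses and 0.103% as gains.

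The slope of the MEG3 interval was -1.08 ± 0.222 points per passage (SE, n = 8). Pearson's r was -0.893 (exact permutation p = 0.0138), whereas Spearman's rho was -0.595 (p = 0.132 by the same exact test). The relation rests on the late libraries: without passages 27 and 28, r was -0.167 (exact permutation p = 0.743, n = 6). Without either late library alone, the exact permutation p was 0.0560 (n = 7). Over passages 6 to 17 the fitted change was -0.49 points (adjusted p = 0.957 with moderated dispersion). With only the 2 CpGs that had at least 10 reads in every library it was -17.9 points and not called (adjusted p = 0.169 with moderated dispersion).

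**Figure D2:**
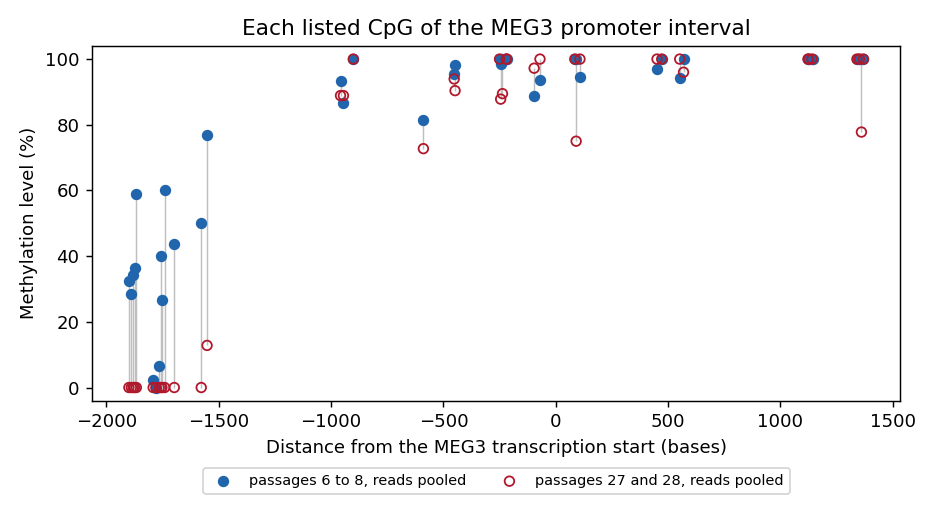
Methylation level (%) of each of the 42 listed CpGs of the MEG3 promoter interval against distance from the MEG3 start in bases, for pooled reads of passages 6 to 8 (filled) and of passages 27 and 28 (open), joined by a line. The 14 CpGs farthest before the start lie at 0% in the late libraries, but for 1 at 12.8%, while most of the other CpGs stay high.

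The loss lay at the upstream edge. On a grid of 1000-base tiles, the first tile of the interval (chromosome 14, 101290001 to 101291000, with 18 listed CpGs) held early levels of 34.8, 42.2 and 46.4%. The middle libraries held 24.8, 41.1 and 42.9%, and the late ones 6.25 and 2.19%. The late libraries lay below all of the others. When tiles were summed over all of their listed CpGs, so that most tiles of the domain could be tested, the fitted change of this tile was -35.3 points (adjusted p = 0.000520, moderated dispersion). In that fit 23.6% of 215318 tiles were called as losses. Of tiles that started at 40 to 60%, as this one did, 49.4% were called as losses, with a median change of -22.5 points. Over passages 6 to 17 the tile's change was 3.59 points (adjusted p = 0.865, moderated dispersion), so its loss rests on the late libraries. With any single library left out it kept its call.

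The tile with the MEG3 start (101292001 to 101293000, 13 CpGs, 1055 reads) stayed close to full methylation. It held 96.3, 99.3 and 96.7% in the early and 98.2, 92.8 and 100% in the middle libraries. The late ones held 96.4 and 95.4%, within the range of the earlier libraries. Its fitted change was -0.97 points (adjusted p = 0.776, moderated dispersion), and tiles of the genome that started at 90% or more had a median change of -5.80 points. Only 19.2% of those tiles were called as losses, so a tile without a call was usual among them. The tile before the one with the start (101291001 to 101292000, 6 CpGs) had an early mean of 92.3% ± 7.01 (SD, n = 3) and a late one of 90.7% (fitted change -4.77 points, adjusted p = 0.474 with moderated dispersion). The last tile (101293001 to 101294000, 9 CpGs) was methylated in 287 of 290 reads. It held 100% in all 6 earlier libraries and 92.6 and 96.7% in the late ones, on 27 and 30 reads. With only 3 unmethylated reads it was not tested, since 10 reads of each state were required.

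**Figure D3:**
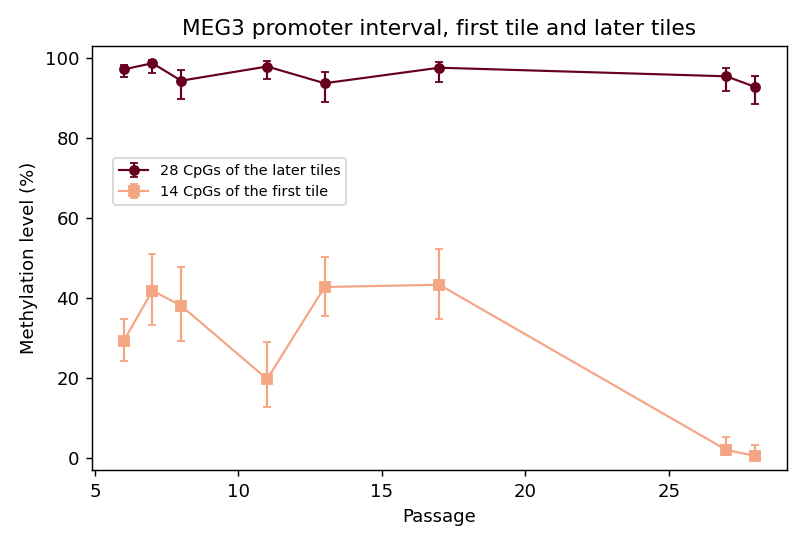
Methylation level (%) against passage for the 14 interval CpGs of the first tile and the 28 CpGs of the later tiles of the MEG3 promoter interval, with 95% Wilson intervals as bars. The later tiles stay above 92% in all 8 libraries, and the first tile lies between 19.8 and 43.3% up to passage 17 and at 2.09 and 0.585% at passages 27 and 28.

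Within the first tile, the 14 CpGs of the interval ran from 101290545 to 101290893. At passages 27 and 28 they had 5 methylated reads of 362, and all 5 were at the last of them, at 101290893, methylated in 76.9% of reads at passages 6 to 8 and 12.8% later. At 101290747 the level went from 43.8% to 0% of 26 reads. Neighbouring CpGs differed from the start: those at 101290653, 101290665 and 101290680 had 1 of 41, 0 of 44 and 3 of 45 methylated reads at passages 6 to 8, while the one at 101290578 had 20 of 34. These CpGs were picked after their values were seen. The other 28 CpGs of the interval had 1739 methylated reads of 1809, and 26 of them were methylated in 90% or more of reads. Those with the most reads were at 101291997 (150 of 158) and 101292200 (141 of 150).

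The interval's level also depends on how reads were spread over parts of unlike level. The first tile's CpGs took 32.7 to 48.8% of the interval's reads in the 6 earlier libraries, highest at passage 13, and 46.7 and 45.1% in the late ones. With equal weight for the 35 CpGs listed in all libraries, the slope was -0.747 points per passage (exact permutation p = 0.0197, n = 8).

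RTL1, the retrotransposon-derived gene, kept most of its methylation. Its level was 90.4, 92.0 and 85.4% in the early libraries and 93.4, 92.3 and 90% in the middle ones. It was 83.0 and 81.4% in the late ones, below all earlier libraries, of which passage 8 was the lowest. The fitted change was -8.32 points (adjusted p = 0.0110, moderated dispersion), which passed the p but not the 10-point limit, so it was not called. With 1 library left out, the adjusted p of that fit reached 0.132. Its slope over the 8 libraries was -0.388 ± 0.145 points per passage (SE). Pearson's r was -0.738 (exact permutation p = 0.0401), and Spearman's rho was -0.548 (p = 0.171 by the same exact test). Without passages 27 and 28, r was 0.182 (exact permutation p = 0.742, n = 6). The exact test was passed on omission of passage 8 only, with p between 0.0516 and 0.170 on omission of any of the others.

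**Figure D4:**
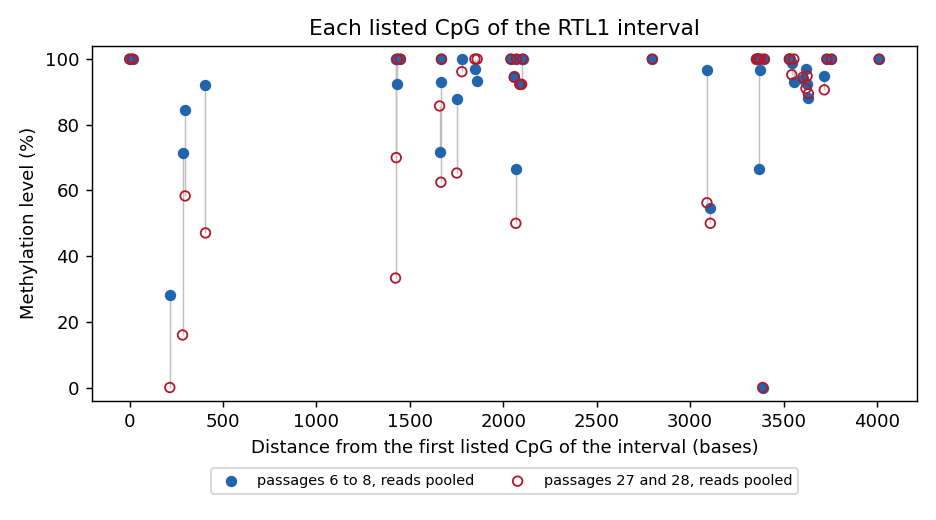
Methylation level (%) of each of the 45 listed CpGs of the RTL1 interval against distance in bases from the first of them, for pooled reads of passages 6 to 8 (filled) and of passages 27 and 28 (open), joined by a line. Of the 6 CpGs of the first tile 4 are lower in the late libraries, and most CpGs of the later tiles stay high.

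Here too the loss lay at 1 end. The tile at 101346001 to 101347000 (6 CpGs) held 70.8, 68 and 65.4% in the early and 65.4, 72.4 and 55% in the middle libraries. It held 42.9 and 9.30% in the late ones. The late libraries lay below the others but differed widely, on 42 and 43 reads. Its fitted change was -46.3 points (adjusted p = 0.00111, moderated dispersion), and without passage 28 it was -26.5 points and lost its call (adjusted p = 0.0710, moderated dispersion). Of tiles of the genome that started at 60 to 80%, 19.8% were called as losses in the same fit, with a median change of -7.85 points.

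In the next tile (101347001 to 101348000, 4 CpGs, 144 reads) the level was 57.9% at passage 27 and at least 91.7% in every other library, passage 28 included at 94.1%. Its fitted change was -24.8 points (adjusted p = 0.0275, moderated dispersion). That call was lost without passage 7 or 11 (adjusted p = 0.0529 and 0.0587), and without passage 27 the tile held too few unmethylated reads to be tested. It therefore rests on 1 library.

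The other 3 RTL1 tiles did not pass the test. The tile at 101348001 went from 90.6% ± 5.88 (SD, n = 3) to 86.8%, the one at 101349001 from 91.8% ± 2.55 (SD, n = 3) to 91.2%, and the one at 101350001 from 93.7% ± 2.99 (SD, n = 3) to 93.1%. Of tiles of the genome that started at 90% or more, as these 3 did, 19.2% were called as losses, with a median change of -5.80 points. The CpGs with the most reads, at 101349996 and 101349920, were methylated in 216 of 229 and 204 of 208 reads.

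Few single CpGs could be tested. With at least 10 reads in every library, 1 CpG of MEG3 and 2 of RTL1 were tested and 0 were called, against losses at 37.5% and gains at 0.362% of 90260 CpGs tested genome-wide. Their adjusted p lay between 0.0647 and 0.433 (moderated dispersion), and 2 of them, at 101290747 and 101348127, had an unadjusted p under 0.05. With at least 5 reads, 10 were tested and 4 were called as losses, 40% against 29.9% of all CpGs (gains 0.31%). These were 101290867 and 101290893 at the edge of MEG3, with fitted changes of -48.5 and -68.1 points, and 101346659 and 101346782 in RTL1, with -60.2 and -45.5 points. They were named after their values were seen.

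The DNA between MEG3 and RTL1 lost more than either interval did. From the MEG3 interval to the RTL1 interval (112 CpGs) the early levels were 68.9, 67.0 and 63.9%, and the middle ones 60.8, 57.0 and 50.2%. In the late libraries they were 32.2 and 27.4%. Each library lay below the one before it. The slope was -1.81 ± 0.0541 points per passage (SE; exact permutation test, p = 2.48e-05, n = 8, the smallest that 8 libraries allow). Over passages 6 to 17 its slope was -1.65 (exact permutation p = 0.00139, n = 6), and the MEG3 slope minus this slope was 1.501 over those passages, which did not pass (adjusted p = 0.0649, exact test).

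The RTL1 slope exceeded that of this stretch by 1.42 ± 0.110 points per passage (SE). The exact permutation p was 0.000124 and its adjusted value 0.00105 (n = 8). For the MEG3 interval the excess was 0.727 ± 0.209 (SE; exact permutation test, p = 0.0116, adjusted 0.0470, n = 8). That call was lost on omission of any single library but passage 17, with adjusted p up to 0.153. With only CpGs of at least 10 reads in every library, neither difference passed (adjusted p = 0.0874 for RTL1 and 0.130 for MEG3, exact tests). These p-values were adjusted over 17 differences of slopes, and these 2 differences were chosen after the values were seen.

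The stretch from the DLK1 interval to the control region (169 CpGs) had an early mean of 67.9% ± 2.04 (SD, n = 3) and a late one of 36.1%. The fitted change was -33.4 points (adjusted p = 1.11e-08, moderated dispersion). From the control region to the MEG3 interval there were 11 CpGs on 12465 bases, and the level went from 40.1% ± 14.7 (SD, n = 3) to 14.5% (fitted change -28.1 points, adjusted p = 0.00110, moderated dispersion). The CpG nearest to the end of the control region, at 101282237, was methylated in 20 of 127 reads over all libraries.

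Of 39 tiles tested from the DLK1 interval to the RTL1 interval, 24 (61.5%) were called as losses and 0 as gains, against 23.6% losses and 0.103% gains over all tiles in the same fit. The share was also high in the 100 kb before the DLK1 interval, at 22 of 33 tiles (66.7%), so it is not particular to the stretch from DLK1 to RTL1. With at least 5 reads at every CpG, 17 of 23 domain tiles were called as losses and 0 as gains, against 34% and 0.165% of all tiles. The median change of the 39 tiles was -24.6 points. Tiles between the intervals had a median change of -25.2 points (21 losses of 31) and tiles in the intervals of -5.32 points (3 losses of 8). Those 8 leave out the DLK1 tiles and the last MEG3 tile, which had too few reads of 1 state to be tested. The tiles between and in the intervals started at unlike levels, with median early means of 75.8% and 92.0%. Over the genome, tiles that started at 60 to 80% had a median change of -7.85 points. Tiles that started at 90% or more had medians of -5.80 and -4.47 points in these 2 fits, close to the median of the tiles in the intervals. The 4 tiles with a late mean of 90% or more were the 2 MEG3 tiles nearest to the start and 2 tiles of RTL1.

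The largest fall among the 39 tiles was at 101302001 to 101303000, with its centre 10.1 kb past the MEG3 start. With 10 reads at every CpG and 10 reads of each state, it was the only domain tile tested. Over its 15 listed CpGs it held 75.4, 79.3 and 74.8% in the early and 68.1, 50.3 and 55.7% in the middle libraries. The late ones held 4.67 and 0.459%. The fitted change was -77.1 points (adjusted p = 4.30e-08, moderated dispersion). In contrast, the tile at 101299001 to 101300000 (5 CpGs) held an early mean of 78.1% ± 4.64 (SD, n = 3) and a late mean of 79.9%, with a fitted change of 0.11 points. Both tiles were chosen after their values were seen.

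**Figure D5:**
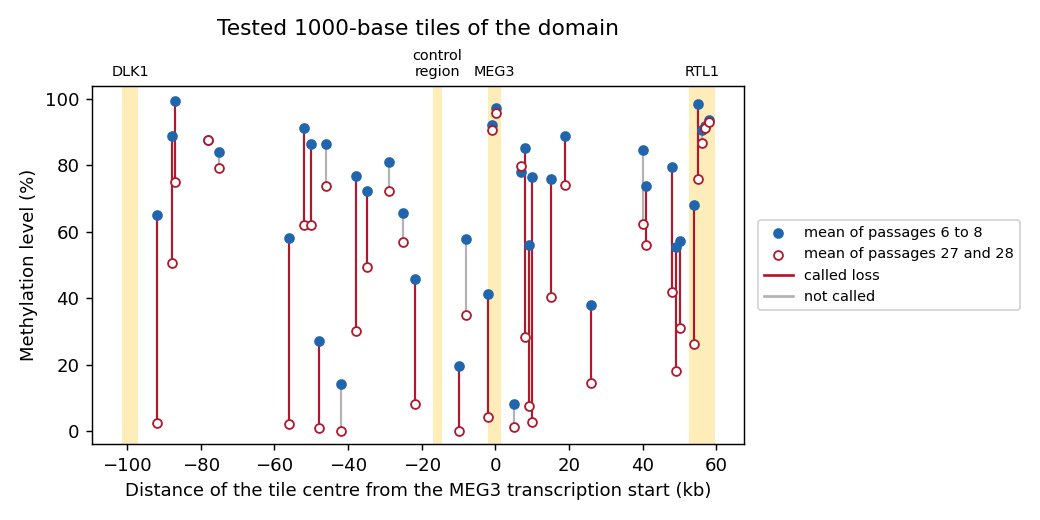
Methylation level (%) of the 39 tested 1000-base tiles against distance of their centre from the MEG3 start (kb), as the mean of passages 6 to 8 (filled) and of passages 27 and 28 (open). Red lines mark the 24 called losses, grey lines tiles that were not called, and yellow bands the 4 intervals.

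The intervals were compared with one another and with control regions of other imprinted genes. The MEG3 slope used is that of the whole interval, whose fall lay in the 14 CpGs farthest upstream. The other 28 CpGs, which include those nearest to the start, stayed at 92.8% or more and were not compared on their own. The MEG3 slope minus that of RTL1 was -0.691 ± 0.199 points per passage (SE), with an exact permutation p of 0.0166 (adjusted 0.0470, n = 8). DLK1 minus MEG3 was 1.07 ± 0.226 (SE; exact permutation test, p = 0.0157, adjusted 0.0470, n = 8), with DLK1 held near 0% from the start. Both calls were lost on omission of any single library but passages 6 and 17, with adjusted p up to 0.179, and with only CpGs of at least 10 reads (adjusted p = 0.133 for DLK1 minus MEG3 and 0.587 for MEG3 minus RTL1, exact tests). Against the autosomal mean (slope -0.451), the MEG3 slope differed by -0.628 ± 0.216 (SE; exact permutation test, p = 0.0326, adjusted 0.0615, n = 8) and the RTL1 slope by 0.0633 ± 0.146 (SE; exact permutation test, p = 0.687, adjusted 0.721, n = 8). Neither passed the adjusted test, which does not show equal slopes.

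The H19 control region is a well-known germline region methylated on the paternal copy (chromosome 11, listed CpGs from 2019090 to 2023781). It had 62 CpGs and lay between 40.3 and 49.2% in all libraries. Its early mean was 45.3% ± 3.98 (SD, n = 3) and its late mean 42.7%. The MEG3 slope minus that of H19 was -1.0105 ± 0.151 points per passage (SE), with an exact permutation p of 0.00335 (adjusted 0.0190, n = 8). That call was lost without passage 27 or 28 (adjusted p = 0.06999 and 0.0933, exact tests). It was also lost with only CpGs of at least 10 reads (adjusted p = 0.213, exact test). The difference concerns the whole MEG3 interval, not the 28 CpGs of its later tiles, which stayed at 92.8% or more. The KCNQ1OT1 promoter region, methylated on the maternal copy (chromosome 11, 2720004 to 2722119, 99 CpGs), went from 40.2% ± 1.70 (SD, n = 3) to 31.0%. It held 46.0, 47.5 and 47.3% in the middle libraries and 32.6 and 29.4% in the late ones, so it too was lowest late. Its fitted change was -10.7 points (adjusted p = 0.0188, moderated dispersion), a called loss as for the MEG3 interval. Its slope did not pass (exact permutation p = 0.0942, n = 8). The SNURF/SNRPN promoter region, also maternally methylated (chromosome 15, 13 CpGs), went from 24.8% ± 3.92 (SD, n = 3) to 32.3%. Its fitted change was 7.82 points and not called (adjusted p = 0.216, moderated dispersion). Slopes of MEG3 against these 2 regions gave adjusted p of 0.0612 in both cases (exact permutation tests, n = 8), and those of RTL1 against all 3 control regions lay between 0.112 and 0.587.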

How the data were processed

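Each deposited file lists CpG positions of hg19, per the submitters' processing notes, with methylated and total reads at each. A deposited score repeats their ratio, scaled to 1000 (all lines matched), and entered no result. The aligner, caller and filters were not given in the sources used here. Duplicates would make counting intervals too narrow.

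Libraries held 2793772 to 2913127 CpGs and 19898423 to 44599588 reads over CpGs, with a median of 6 to 13 reads per CpG. Neighbouring libraries differed by more than read counting gives (chi-square averaged over CpGs from 1.73 to 4.40), and none was counted as a duplicate. Reads were summed per interval and library. Intervals and stretches were added to a table of autosomal tiles of 1000 bases (at least 3 CpGs with 10 reads in every library). All were fitted by quasi-binomial regression on passage (R 4.3.3, limma 3.58.1 squeezeVar, dispersion not under 1, 10 reads of each state, two-sided F test, Benjamini-Hochberg over the table). Since few domain tiles had such coverage, tiles summed over all listed CpGs (at least 3 CpGs, 10 reads per library) were fitted too, an alternative chosen after seeing the data. The fit was tested on simulated data. Permutation tests were two-sided over all orders of the libraries (numpy 2.4.6), and those of interval trends were not adjusted. Bounds of the control regions used for comparison were not taken from the deposited files and were not checked against an hg19 annotation. The text names all intervals and control regions, tested tiles of the intervals, and per interval the 2 called CpGs of largest fall and rise and the 2 with most reads. Members and lists were chosen with earlier results of these data known.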

Additional observations from a re-analysis of the deposited data

How the results depend on the processing

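No paired analysis was possible because there was 1 library at each passage. Depth was low over the files, at a median of 6 to 13 reads per CpG. Of the recomputed values, 257 kept their direction and their side of the threshold, 49 were weaker, 7 stronger, 23 turned in sign and 3 counts moved. The cause was not tested, beyond the fewer CpGs or libraries that a setting leaves. No CpG of the intervals had 20 reads in every library, so that minimum gave no value.

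With only CpGs of at least 10 reads in every library (8, 2 and 2 CpGs), the slope in points per passage was -0.0750 for DLK1, which then passed (exact permutation p = 0.0185), and -0.642 for RTL1, which did not (p = 0.0690). Equal weights gave -0.0805 (DLK1, passed) and -0.638 (RTL1, did not pass). The whole DLK1 interval held 14 methylated reads of 5237, so these DLK1 slopes rest on few methylated reads near 0%. Each of these differences lost its call: 0.938 (DLK1 minus MEG3), -0.371 (MEG3 minus RTL1), -0.693 (MEG3 minus H19), 0.826 (MEG3 minus the stretch to RTL1) and 1.197 (RTL1 minus that stretch). RTL1 minus the autosomal mean turned to -0.191 and RTL1 minus KCNQ1OT1 to -0.196, neither called. The fitted changes were -17.9 points for MEG3, no longer called, and -14.4 points for RTL1, then called. On log2 of passage the RTL1 slope was -3.42 per doubling and did not pass.

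Over passages 6 to 17 the slopes were -0.0486 (DLK1, which passed), -0.146 (MEG3, which did not) and 0.123 (RTL1, turned, not passed). The DLK1 slope again rests on few methylated reads, with levels of at most 0.455% at these passages. Calls ended for 0.0976 (DLK1 minus MEG3), -0.269 (MEG3 minus RTL1), -0.466 (MEG3 minus H19) and 1.501 (MEG3 minus the stretch). Differences that turned in sign without a call were -0.172 (DLK1 minus RTL1), 0.277 (MEG3 minus the autosomal mean), -0.368 (DLK1 minus H19), -0.821 (DLK1 minus KCNQ1OT1), 0.539 (DLK1 minus SNURF/SNRPN), 0.442 (MEG3 minus SNURF/SNRPN) and 0.711 (RTL1 minus SNURF/SNRPN). RTL1 minus KCNQ1OT1 turned to -0.649 and passed. The fitted change was -0.49 points for MEG3 and turned to 1.42 points for RTL1. The tiles at 101290001, 101292001 and 101350001 turned to 3.59, 0.62 and 1.72 points, none called. With all 8 libraries, called domain tiles were 1 of 1 with 10 reads per CpG and 17 of 23 with 5 reads. Over all listed CpGs they were 24 of 39. The shares of losses over all tiles were 47.6, 34 and 23.6%, in the same order. With 10 and 5 reads, called CpGs were 0 of 3 and 4 of 10, against losses at 37.5 and 29.9% of all CpGs.

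With 1 library left out, slopes ranged from -0.0224 to -0.00357 (DLK1), -1.22 to -0.975 (MEG3) and -0.477 to -0.299 (RTL1). Differences ranged from 0.953 to 1.21 (DLK1 minus MEG3), -0.800 to -0.614 (MEG3 minus RTL1), -0.765 to -0.517 (MEG3 minus the autosomal mean), -1.06 to -0.846 (MEG3 minus H19), -1.80 to -0.987 (MEG3 minus SNURF/SNRPN) and 0.588 to 0.876 (MEG3 minus the stretch). Uncalled values that turned in sign ranged from -0.0280 to 0.137 (RTL1 minus the autosomal mean), -0.0918 to 0.152 (DLK1 minus H19) and -0.0246 to 0.163 (RTL1 minus KCNQ1OT1), and from -1.72 to 1.997 points (tile 101349001) and -2.67 to 0.16 points (tile 101350001). The fitted MEG3 change stayed between -25.9 and -19.4 points and kept its call.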

Other observations

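In the 100 kb before the DLK1 interval, 380 listed CpGs had an early mean (passages 6 to 8) of 32.1% ± 0.362 (SD, n = 3) and a late mean (27 and 28) of 14.1%. Of 33 tiles wholly inside this stretch, 22 (66.7%) were called as losses and 0 as gains. Over all tiles in the same fit, 23.6% were losses and 0.103% gains. In the 100 kb after the RTL1 interval, which reaches towards the microRNA genes, only 56 CpGs were listed. Their means were 21.2% ± 2.85 (SD, n = 3) and 11.5% (fitted change -8.86 points, adjusted p = 0.00323, limma's moderated dispersion), and 0 of 4 tiles were called. Of these 4, 2 started under 10% and could not fall by the 10 points that a call needs, and the flanks were not tested against each other. Past the DLK1 interval, the tile at 101200001 to 101201000 (19 CpGs) fell from 65.1% ± 5.69 (SD, n = 3) to 2.50% in the late mean. Its fitted change was -64.1 points (adjusted p = 3.36e-08, moderated dispersion), and it was chosen after its values were seen. In the same fit 19.8% of tiles that started at 60 to 80% were called as losses, with a median change of -7.85 points. With 10 reads at every CpG, 66.6% of that class were called, with a median change of -30.6 points.

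A CpG of the RTL1 interval at 101349764 had no methylated read among 37, which allows up to 8.11%, while its listed neighbours at 101349752 and 101349772 were methylated in 47 of 48 and 37 of 37 reads. The cause was not tested.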
